A study of Mus musculus with 12 samples.

Results

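Gene expression in U2OS cells transfected with siSRSF1-3, a small interfering RNA (siRNA) against the splicing factor SRSF1, was compared with that in blank U2OS cells. The members were chosen by their sample labels, as 3 siSRSF1-3 libraries and 3 blank libraries out of 12 libraries in all, and every gene of the expression table was considered. The table held 58735 genes, of which 17538 were tested because they reached 0.5 FPKM or more on average over the 12 libraries. FPKM are fragments per kilobase of gene and of sequencing depth, a level that allows for gene length. U2OS is an established human osteosarcoma cell line. The series was made to ask which transcripts depend on SRSF1 in osteosarcoma.

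The labels call the controls blank U2OS cells and name no siRNA for them, and for the siSRSF1-3 cells they name the siRNA and no other change. For transfection in general, the methods of the study gave 50 nM of siRNA and harvest after 48 h, but they placed it in HOS cells, another osteosarcoma line. None of the 12 libraries came from cells given a control siRNA, so the effects of transfection and of the siRNA cannot be told apart here. A second siRNA, siSRSF1-2, and overexpression of the long non-coding RNA LINC01134 (OE-LINC01134) made up the other 6 libraries, 3 each. The labels named mouse as the organism, whereas all 58735 gene identifiers were human Ensembl identifiers. Nothing in the labels said that replicates came from separate cultures, so the p-values measure the spread between these libraries, which may be technical.

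SRSF1 belongs to the SR proteins, which bind exonic enhancers through RNA recognition motifs and recruit the splicing machinery through a domain rich in arginine and serine. Beyond splice site choice, SRSF1 is known for roles in mRNA export, translation and nonsense-mediated decay, and it is counted among the splicing factors that act as oncogenes. An siRNA directs the RNA-induced silencing complex to a matching mRNA, and its seed can also lower other transcripts with partial matches. Because a gene can move with 1 library as well as with a condition, genes were followed in each siSRSF1-3 library on its own.

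The 3 siSRSF1-3 libraries were not alike. Libraries held 26237763 to 32954539 reads on genes, and the siSRSF1-3 median of 28642184 was close to the blank median of 27959168, so depth did not separate the groups. The number of tested genes at least 1 log2 unit above the blank mean was 3465 in siSRSF1-3 replicate 1, 2144 in replicate 2 and 853 in replicate 3, and 3463, 2413 and 1043 genes lay as far below it. The 100 most abundant genes took 31.3%, 24.6% and 19.5% of reads in these 3 libraries and between 19.8% and 20.6% in the blank libraries. Genes longer than 6 kb took 24.5%, 28.4% and 36.7% of reads, against 36.5% to 37.6% in the blank libraries. On the log2 scale, siSRSF1-3 replicate 3 correlated across genes with the siSRSF1-2 libraries at r between 0.958 and 0.960 and with its own group at 0.861 and 0.922, as a description over genes that share libraries. Blank replicates 2 and 3 were the closest pair of the blank group, and blank replicate 1 stood apart from both. The chi-square of reads per degree of freedom, near 1 for counting error alone, was 2.751 for that pair. With blank replicate 1 it was 63.2 and 66.37, and within the siSRSF1-2 group it was 2.603 to 3.197. Libraries this close may be technical copies, so p-values of comparisons that use them may rest on too small a spread. The sum of FPKM over all genes was 611084, 410612 and 302504 in siSRSF1-3 replicates 1 to 3 and 301921 to 324607 in the blank libraries. Mesenchymal and osteoblast markers were present, with 10 of 12 above the filter and a summed FPKM of 378 to 506 in the blank and 199 to 326 in the siSRSF1-3 libraries. Of 12 epithelial markers, 8 were below 0.5 FPKM in all 6 libraries, and of 10 blood markers 8 were. The summed FPKM of the blood markers was 6.20 to 8.33 in the blank and 10.7 to 52.6 in the siSRSF1-3 libraries, with 52.6 in replicate 2. Only 1 of the 10 blood markers was above the filter. It lay 0.50, 2.84 and 1.13 log2 units above the blank mean in siSRSF1-3 replicates 1 to 3. The sum therefore does not describe the blood markers as a group. The summed FPKM of the epithelial markers was 4.16 to 6.03 in the blank and 8.06 to 8.59 in the siSRSF1-3 libraries. For 6 endothelial markers the sums were 1.07 to 3.35 and 0.642 to 0.850, and for 6 neural markers 3.47 to 4.87 and 2.61 to 2.82. The part of these markers in the results was not tested.

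SRSF1 itself (chromosome 17, 58003360 to 58007346, minus strand, identifier ENSG00000136450; the genome build is not given in the sources used here) was lower in every siSRSF1-3 library than in any blank library. Its FPKM was 35.9, 19.8 and 20.48 in blank replicates 1 to 3 and 3.33, 6.81 and 7.90 in siSRSF1-3 replicates 1 to 3. Replicate 1 was lowest and replicate 3 least low, and blank replicate 1 was well above the other two. The fitted difference (log2 fold change -2.09, SE 0.38, adjusted p = 0.0518) missed the threshold of an adjusted p under 0.05, and an exact two-sided permutation test gave p = 0.1, the smallest that 3 against 3 libraries allow. Without siSRSF1-3 replicate 3 the difference passed (log2 fold change -2.33, adjusted p = 0.0140).

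Over all genes tested, 58 rose (0.331%) and 163 fell (0.929%) with siSRSF1-3, by limma with Benjamini-Hochberg adjustment and a log2 fold change over 1. These 221 genes were 1.26% of those tested. At an unadjusted p under 0.05 these counts were 1327 (7.57%) and 1269 (7.24%). Groups did not overlap, with all 3 libraries on one side of the blank libraries, for 3361 genes above (19.2%) and 3160 below (18%). With FPKM brought to an equal sum per library 1 rose and 0 fell, with 507 and 2553 at an unadjusted p, and with each library's own read total 11 rose and 58 fell. Leaving out single libraries also moved the counts of calls strongly. Without siSRSF1-3 replicate 3 they were 2192 and 1992, without blank replicate 1 they were 1 and 28, without siSRSF1-3 replicate 1 they were 1 and 12, and without blank replicate 2, blank replicate 3 or siSRSF1-3 replicate 2 they were 0 and 0.

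To separate genes that moved alike in all 3 siSRSF1-3 libraries from those that moved in replicates 1 and 2 only, each gene was given a distance in each library, which is its log2(FPKM + 0.1) minus the blank mean. A gene was sorted as higher or lower in all 3 libraries when each distance was at least 1 in the same direction and beyond every blank library. It was sorted as higher or lower in replicates 1 and 2 only when those replicates met this rule and replicate 3 lay within 0.5 of the blank mean. The sorting is a description of these libraries and has no test. It gave 367 genes higher in all 3 (2.09% of genes tested), 517 lower in all 3 (2.95%), 954 higher in replicates 1 and 2 only (5.44%) and 724 lower in replicates 1 and 2 only (4.13%). The counts moved with the scaling, and in the same order they were 209, 667, 181 and 1927 with an equal FPKM sum and 286, 613, 396 and 1330 with own read totals. Under both, the genes lower in replicates 1 and 2 only outnumbered the higher ones. In the genes that were higher in all 3 the median distances were 2.15, 1.81 and 1.36 in replicates 1 to 3, and in those lower in all 3 they were -1.93, -1.77 and -1.44, so replicate 1 was farthest in both. Among genes of the other kind they were 1.88, 1.23 and 0.22 for the higher ones and -2.16, -1.53 and -0.10 for the lower ones. Of the 58 genes that rose, 50 were higher in all 3, and of the 163 that fell, 150 were lower in all 3. None of the genes sorted as moving in replicates 1 and 2 only passed the test, and their smallest adjusted p was 0.0777 for higher and 0.0826 for lower genes. The sorting and the test used the same 6 libraries, and a replicate 3 apart from replicates 1 and 2 widens the spread in the test. How the calls fall into the classes therefore follows in large part from the sorting rule and is not a separate result.

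**Figure D1:**
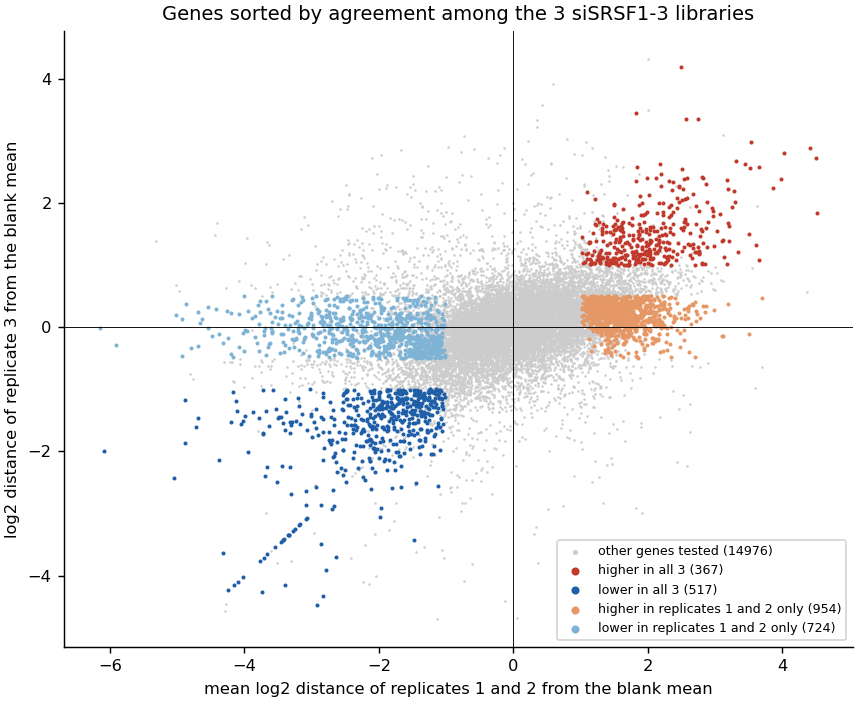
Each point is 1 of the 17538 genes tested, with the mean distance from the blank mean in siSRSF1-3 replicates 1 and 2 (log2 units, horizontal axis) against the distance in replicate 3 (vertical axis), coloured by sorted class. The 954 and 724 genes that moved in replicates 1 and 2 only lie in a flat band at distances under 0.5 in replicate 3. The 367 and 517 genes that moved in all 3 are at least 1 from the blank mean in the same direction on both axes. Their median distance is smaller in replicate 3 than in replicates 1 and 2.

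The limits of each class had close neighbours. FLCN, the folliculin tumour suppressor, was just inside the class higher in all 3, with distances of 1.29, 1.03 and 1.02, and FGF2, a fibroblast growth factor, was just outside it with 1.25, 1.03 and 0.93. LSS, lanosterol synthase, was just inside the class lower in all 3 (-1.05, -1.13 and -1.02), and the Wnt receptor FZD8 was just outside with -1.92, -0.99 and -1.29. RPL28 was just inside the class higher in replicates 1 and 2 only, with 0.49 in replicate 3, and BAX, a pro-apoptotic member of the BCL2 family, was just outside it with 0.54. COL6A3 was just inside the class lower in replicates 1 and 2 only, with -0.498 in replicate 3, and COL4A5, a basement membrane collagen chain, was just outside with -0.536. A further 509 genes (2.9%) were higher and 443 (2.53%) lower in replicates 1 and 2 with replicate 3 between 0.5 and 1 in the same direction. In 36 genes (0.205%) replicates 1 and 2 were higher and replicate 3 at least 0.5 lower than the blank mean, and in 137 (0.781%) the reverse held.

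Genes that were higher in all 3 libraries included secreted signalling proteins, stress genes and many non-coding transcripts. ALOXE3, an epidermal lipoxygenase (chromosome 17, 8095900 to 8119047), had FPKM of 3.04, 8.18 and 9.16 in the blank and 40.1, 29.3 and 29.8 in the siSRSF1-3 libraries. Every siSRSF1-3 library was above every blank library, and the difference missed the threshold (log2 fold change 2.40, SE 0.42, adjusted p = 0.0505). PPP1R15A, which brings protein phosphatase 1 to phosphorylated eIF2alpha and is induced by stress, had FPKM of 50.1, 178 and 173 in the blank and 655, 546 and 417 in the siSRSF1-3 libraries (log2 fold change 2.20, SE 0.53, adjusted p = 0.0772). For both genes blank replicate 1 was far below the other blank libraries. SPRR2D, a protein of the cornified envelope, had blank FPKM of 1.95, 73.99 and 77.1 and siSRSF1-3 FPKM of 548, 232 and 119, so replicate 3 exceeded blank replicate 3 by far less than replicate 1 did. The epithelial cytokine TSLP had FPKM of 0.768, 6.54 and 7.71 (blank) and 14.96, 16.8 and 14.2 (siSRSF1-3) (log2 fold change 2.11, SE 0.79, adjusted p = 0.144), and IL24, a cytokine of the IL-10 family, had 0.876, 10.5 and 10.9 (blank) and 28.1, 21.2 and 18.9 (siSRSF1-3) (log2 fold change 2.22, SE 0.90, adjusted p = 0.163). In each of these genes it was blank replicate 1 that lay farthest from the siSRSF1-3 libraries. Other protein-coding members averaged 10 FPKM or more over the 6 libraries, siSRSF1-3 included. They were ZNF554, a zinc finger protein, GCNA, a germ cell nuclear protein, and CD22, a sialic acid receptor of B cells. The immune receptors OSCAR and SLAMF7 and the Golgi transport protein GOLT1A were also among them. ZNF554 averaged 3.41 FPKM in the blank and 16.6 in the siSRSF1-3 libraries, and GOLT1A 2.49 and 19.4. Among these 6 genes GOLT1A rose (log2 fold change 2.86, SE 0.48, adjusted p = 0.0481), and the others had adjusted p between 0.0512 and 0.107.

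The smallest adjusted p-values among the genes that rose belonged to transcripts whose blank libraries lay close together. ENSG00000285722, a long intergenic non-coding RNA (chromosome 22, 49372924 to 49377119), had FPKM of 15.8, 14.4 and 15.7 in the blank and 178, 129.5 and 98.3 in the siSRSF1-3 libraries (log2 fold change 3.09, SE 0.25, adjusted p = 0.0184). KCNIP4, a calcium-binding partner of Kv4 potassium channels, rose from 0.339, 0.380 and 0.424 to 2.61, 2.16 and 2.32 FPKM (log2 fold change 2.36, SE 0.25, adjusted p = 0.0351). ANGPT2, the angiopoietin that antagonises TIE2, rose from 0.496, 0.364 and 0.388 to 2.07, 2.41 and 2.73 FPKM (log2 fold change 2.28, SE 0.26, adjusted p = 0.0356). In these genes no siSRSF1-3 library overlapped the blank libraries, and ENSG00000285722 was highest in replicate 1 and least high in replicate 3. SNAPC1, a subunit of the complex that activates small nuclear RNA genes, rose from 21.2, 19.9 and 20.9 to 51.2, 57.6 and 51.9 FPKM, so that replicates 1 to 3 were almost level (log2 fold change 1.37, SE 0.16, adjusted p = 0.0376). FAM19A5, a secreted chemokine-like protein, rose from 9.78, 8.35 and 7.91 to 25.5, 29.7 and 22.2 FPKM (log2 fold change 1.56, SE 0.19, adjusted p = 0.0376). DIRC3, a long non-coding RNA, also rose (log2 fold change 2.52, SE 0.38, adjusted p = 0.0453).

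As a class, the 367 genes higher in all 3 were low in the blank libraries, short and often non-coding. Their median blank FPKM was 1.11, against 3.91 for all genes tested, and their median length was 1315 nt against 3701 nt. The filter counts the siSRSF1-3 libraries, and the sorting asks for a distance above the blank mean. Both favour genes with a low blank level, so that level is in part a product of the selection. Protein-coding genes made up 41.4% of the class and 69.96% of all genes tested, and long intergenic non-coding RNAs 21.8% against 6.87%. Of 303 genes named as LINC transcripts, 26 (8.58%) were higher and 8 (2.64%) lower in all 3, beside 2.09% and 2.95% of all genes tested. Blank replicate 1 was the lowest blank library in 261 of the 367 genes (71.1%), compared with 41.5% of all genes tested. Without blank replicate 1 the class held 277 genes, of which 209 were among the 367. Without blank replicate 2 it held 462, with 331 of the 367, and without blank replicate 3 it held 488, with 341.

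Genes that were lower in all 3 libraries included regulators of growth, cell surface and matrix proteins, and proteins of the membrane skeleton. CCND1, cyclin D1 (chromosome 11, 69641087 to 69654474), which drives entry into S phase, had FPKM of 40.5, 29.8 and 29.7 in the blank and 5.47, 5.57 and 6.76 in the siSRSF1-3 libraries. The 3 siSRSF1-3 libraries were nearly equal and far below all blank libraries, and CCND1 fell (log2 fold change -2.46, SE 0.20, adjusted p = 0.0184). PLAU, urokinase, fell from 30.01, 33.3 and 34.1 to 5.90, 8.12 and 5.84 FPKM (log2 fold change -2.29, SE 0.19, adjusted p = 0.0184). EMP1, an epithelial membrane protein, fell from 31.4, 24.04 and 23.997 to 3.20, 5.07 and 6.16 FPKM (log2 fold change -2.47, SE 0.27, adjusted p = 0.0356). AHNAK, a giant scaffold protein under the plasma membrane, fell from 40.1, 26.4 and 24.6 to 4.91, 5.38 and 9.03 FPKM and was least low in replicate 3 (log2 fold change -2.24, SE 0.30, adjusted p = 0.0426). PODXL, a sialomucin of the cell surface, fell from 26.1, 15.1 and 15.5 to 3.45, 3.44 and 4.47 FPKM, and ANXA6, a calcium-dependent membrane-binding annexin, from 28.9, 23.2 and 23.3 to 4.16, 6.46 and 5.54 FPKM. Both passed the test, with log2 fold changes of -2.25 and -2.22. NEFL, the light neurofilament chain, fell with a log2 fold change of -2.003 (SE 0.15), and the metalloprotease ADAM19 with -2.14 (SE 0.24).

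Several other genes with low values in all 3 libraries did not pass the test. CTGF, a matricellular growth factor, had FPKM of 382, 87.6 and 88.9 in the blank and 29.5, 36.3 and 38.6 in the siSRSF1-3 libraries, with blank replicate 1 far above the others and the siSRSF1-3 libraries close together (log2 fold change -2.05, SE 0.57, adjusted p = 0.0949). THBS1, thrombospondin 1, had FPKM of 44.5, 5.18 and 5.02 (blank) and 1.73, 1.81 and 2.96 (siSRSF1-3) (log2 fold change -2.27, SE 0.82, adjusted p = 0.135), and the caveolar coat protein CAV1 had 45.1, 15.2 and 16.1 (blank) and 5.95, 5.66 and 4.93 (siSRSF1-3) (log2 fold change -1.998, SE 0.42, adjusted p = 0.0612). AKAP12, an anchoring protein for protein kinase A, had 14.2, 30.7 and 30.3 (blank) and 3.10, 3.83 and 7.25 (siSRSF1-3) (log2 fold change -2.39, SE 0.42, adjusted p = 0.0505), and BASP1, a membrane-attached signal protein, had 0.277, 7.54 and 7.61 (blank) and 0.115, 0.231 and 0.0579 (siSRSF1-3) (log2 fold change -3.65, SE 1.16, adjusted p = 0.114). Of the remaining leading members, the transcriptional regulator LBH and the pseudokinase TRIB2 fell with log2 fold changes of -2.66 and -2.53, and TGFBI, a secreted matrix protein, with -2.77.

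The 517 genes lower in all 3 had a median length of 3942 nt and a median blank FPKM of 2.91, and 64.6% were protein coding. Their protein-coding members were longer, with a median of 5699.5 nt against 5034 nt over all protein-coding genes tested. Blank replicate 1 was the highest blank library in 57.6% of the class and in 47.3% of all genes tested. Without blank replicate 1 the class held 543 genes, of which 409 were among the 517. In 47 members no read was seen in siSRSF1-3 replicates 1 and 2. Such a count of 0 allows up to 3 reads per library, so the distances of these members depend on the pseudocount.

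**Figure D2:**
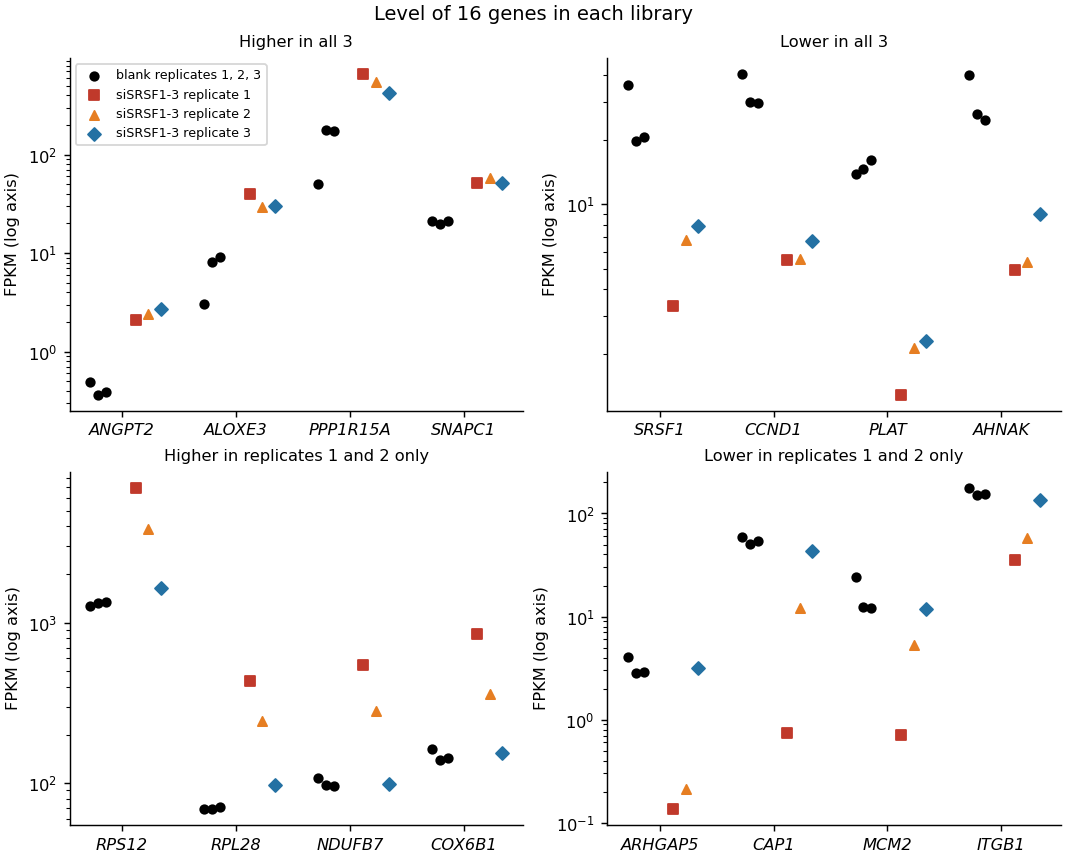
FPKM of 16 genes in each blank (replicates 1 to 3) and each siSRSF1-3 library (replicates 1 to 3). Each panel is a sorted class with its genes side by side, and points are libraries. In the upper panels all 3 siSRSF1-3 libraries are on one side of the blank libraries, as for SNAPC1 and CCND1. In the lower panels replicate 3 is back near the blank libraries, as for NDUFB7 and ARHGAP5.

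Genes higher in replicates 1 and 2 only included many abundant mRNAs of the ribosome and of mitochondria. RPS12, a protein of the small ribosomal subunit, had FPKM of 1269, 1326 and 1344 in the blank and 6901, 3865 and 1651 in the siSRSF1-3 libraries. The distances from the blank mean were 2.39, 1.56 and 0.33, so replicate 1 was highest and replicate 3 closest to the blank libraries. RPL28, of the large subunit, had 69.1, 69.1 and 70.6 (blank) and 431, 244 and 98.01 (siSRSF1-3) FPKM, and RPL13 had 202, 227 and 222 (blank) and 1458, 705 and 284 (siSRSF1-3). NDUFB7, a subunit of respiratory complex I, had FPKM of 108, 97.7 and 96.04 in the blank and 543, 284 and 98.7 in the siSRSF1-3 libraries. COX6B1, a subunit of cytochrome c oxidase, had 163, 139 and 144 (blank) and 854, 359 and 155 (siSRSF1-3) FPKM. For both genes replicates 1 and 2 exceeded every blank library and replicate 3 lay at the blank level. None of these genes passed the test, with adjusted p from 0.109 for RPL28 to 0.189 for COX6B1.

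Other leading members of this class came from several compartments. C4orf48, a small secreted peptide, had FPKM of 49.9, 56.9 and 44.8 in the blank and 485, 177 and 48.8 in the siSRSF1-3 libraries. SDHAF2, an assembly factor of succinate dehydrogenase, had 6.25, 5.22 and 5.90 (blank) and 43.7, 20.3 and 8.13 (siSRSF1-3) FPKM, and PARL, a rhomboid protease of the inner mitochondrial membrane, had 5.75, 5.79 and 6.20 (blank) and 54.6, 20.03 and 6.97 (siSRSF1-3). In all 3 genes the libraries followed the same order, with replicate 1 highest. PGLS of the pentose phosphate pathway, the secreted protein NENF, LAMTOR4 of the lysosomal Ragulator complex, SCAND1, C12orf57, CHCHD5 and RPS28 had distances in replicate 1 between 2.49 for RPS28 and 3.36 for C12orf57.

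The group of genes was broad. Of 93 tested genes named as ribosomal proteins, 65 (69.9%) were higher in replicates 1 and 2 only, beside 5.44% of all genes tested. Of 77 mitochondrial ribosomal proteins 17 (22.1%) were, and of 48 genes named as NADH:ubiquinone oxidoreductase subunits 20 (41.7%) were. In each of these groups 0 genes were higher in all 3, but at the share of 2.09% over all genes few would be. Among 245 ribosomal protein pseudogenes 68 (27.8%) were higher in replicates 1 and 2 only and 12 (4.90%) higher in all 3. A further 17 pseudogenes (6.94%) were lower in replicates 1 and 2 only, beside 4.13% of all genes tested. The pseudogene RPL13AP25 had FPKM of 9.03, 6.50 and 7.24 in the blank and 152, 31.8 and 9.80 in the siSRSF1-3 libraries, and RPL24P2, RPS7P10 and RPL3P4 were sorted likewise. Reads of such copies may belong to their parent genes, so these values are uncertain. The 954 genes had a median blank FPKM of 10.6, and 11.9% lay on chromosome 19, against 6.68% of all genes tested. The median length of their protein-coding members was 2388 nt. Of the 4439 abundant protein-coding genes, those with an average of 10 FPKM or more over the 6 libraries, 491 were in this class, compared with 55 in the class higher in all 3, 59 in the class lower in all 3 and 32 in the class lower in replicates 1 and 2 only. That average includes the siSRSF1-3 libraries, so the limit admits higher genes more readily than lower ones. The difference between these counts is thus made in part by the limit.

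Genes lower in replicates 1 and 2 only included long mRNAs and short RNAs of few reads. ARHGAP5, a GTPase-activating protein (chromosome 14, 32076114 to 32159728), had FPKM of 4.03, 2.84 and 2.88 in the blank and 0.136, 0.213 and 3.17 in the siSRSF1-3 libraries. The reads behind these values were 1216, 880 and 1026 in the blank and 29, 59 and 1077 in the siSRSF1-3 libraries. Replicates 1 and 2 held far fewer reads than any blank library and replicate 3 was at the blank level (log2 fold change -2.41, SE 0.94, adjusted p = 0.154). CAP1, which binds actin monomers, had FPKM of 58.5, 50.9 and 53.7 in the blank, 0.736, 12.2 and 43.5 in the siSRSF1-3 and 33.8, 33.3 and 33.8 in the siSRSF1-2 libraries. Replicate 1 held 55 reads of it and replicate 2 held 1185, so these 2 replicates also differed from each other. MCM2, a subunit of the replicative helicase, had 23.97, 12.3 and 12.2 (blank) and 0.708, 5.27 and 11.9 (siSRSF1-3) FPKM, and CEBPZ, a nucleolar transcription factor, had 17.9, 12.5 and 13.7 (blank) and 1.11, 5.60 and 13.5 (siSRSF1-3).

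ITGB1, the integrin beta 1 chain, had FPKM of 176, 150.3 and 154 in the blank and 35.7, 57.5 and 136 in the siSRSF1-3 libraries, and COL6A3, a collagen VI chain, had 15.7, 22.03 and 20.53 (blank) and 6.81, 7.15 and 13.6 (siSRSF1-3). Chromosome proteins in this class were INCENP of the chromosomal passenger complex, the kinetochore protein CENPF, the condensin subunit SMC2 and PRKDC, the catalytic subunit of DNA-dependent protein kinase. Their distances in replicate 3 were -0.42, -0.37, -0.30 and -0.25, and in replicate 1 they were -2.26, -1.76, -1.52 and -1.65. VCL, the focal adhesion protein vinculin, had distances of -1.52, -1.34 and -0.39, and MAT2A, which makes S-adenosylmethionine, of -2.69, -1.25 and -0.18.

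MT-ND4L, a complex I subunit encoded by mitochondrial DNA, had FPKM of 3402, 3535 and 3466 in the blank and 462, 571 and 2683 in the siSRSF1-3 libraries. MT-ND4, which is carried by the same mRNA, had 5066, 5973 and 6223 (blank) and 6404, 3609.7 and 4710.5 (siSRSF1-3) FPKM, so replicate 1 was above every blank library and replicates 2 and 3 below. The 2 genes overlap, and reads in the overlap cannot be assigned with certainty. Among short RNAs, the microRNA gene MIR5581 had 15, 9 and 14 reads in the blank and 0, 0 and 13 reads in the siSRSF1-3 libraries. RNA5SP187, a 5S ribosomal RNA pseudogene, and the microRNA gene MIR1254-1 were sorted likewise on few reads. No read was seen in replicates 1 and 2 in 67 of the 724 genes. The class was 24.6% pseudogenes, against 8.72% of all genes tested, and 41.3% protein coding. Blank replicate 1 was the highest blank library in 57.6% of the class and the lowest in 25.4%, against 47.3% and 41.5% of all genes tested. The protein-coding members had a median length of 6851 nt, the longest of the 4 classes.

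From 500 nt upward, the median distance fell from bin to bin of gene length in replicates 1 and 2, and in replicate 3 it stayed near 0. In 158 protein-coding genes of 500 to 1000 nt, the median distances were 1.4998, 0.97 and 0.053 in siSRSF1-3 replicates 1 to 3, and in 379 genes of 1000 to 1500 nt they were 1.18, 0.83 and 0.081. The 26 genes of up to 500 nt were less high, with 0.92, 0.48 and -0.13. In 1572 genes of 2000 to 3000 nt they were 0.45, 0.38 and 0.03, and in 3058 genes of 4000 to 6000 nt they were -0.06, -0.03 and 0.01. In 782 genes over 12000 nt they were -0.47, -0.43 and 0.03. The medians of the blank libraries stayed between -0.16 and 0.17 in every bin. The siSRSF1-2 libraries ran the other way and less far, from -0.31 to -0.28 at 500 to 1000 nt to between 0.19 and 0.22 over 12000 nt. Of protein-coding genes, 29.7% of the 158 of 500 to 1000 nt were higher in replicates 1 and 2 only, and 0.128% of those over 12000 nt were. The part of length, RNA quality and library preparation in the classes was not tested.

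**Figure D3:**
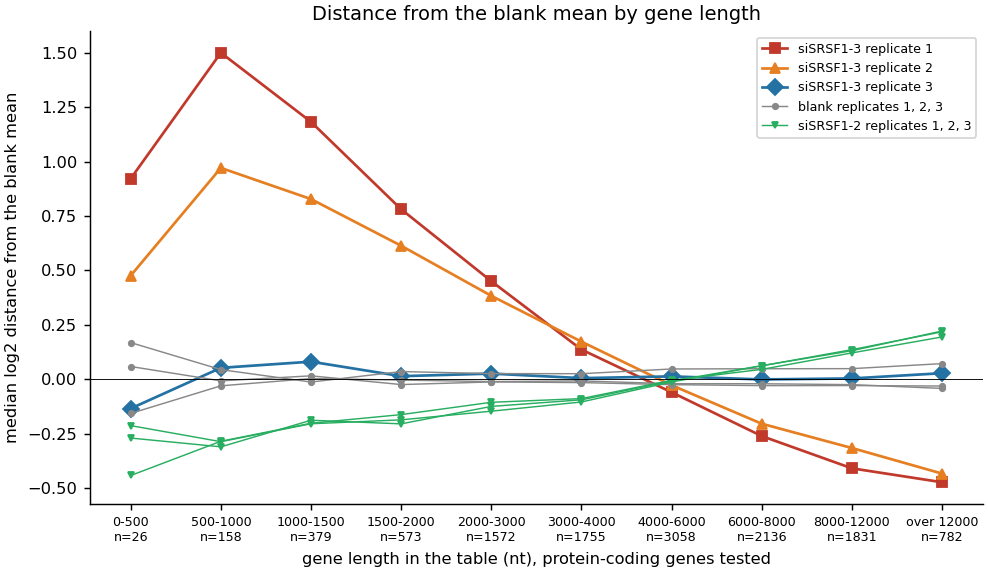
Median distance from the blank mean (log2 units, vertical axis) of protein-coding genes in bins of gene length (nt, horizontal axis), with a line per library. The lines of siSRSF1-3 replicates 1 and 2 start at 0.92 and 0.48 up to 500 nt, are highest at 500 to 1000 nt, and fall from there to -0.47 and -0.43 over 12000 nt, while the line of replicate 3 stays between -0.13 and 0.08.

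Gene lists written from known function were read in the same way, by counts and medians beside those of all genes tested, whose median log2 fold change was -0.011. Of all genes tested, 0.331% rose, 0.929% fell and 5.44% were higher in replicates 1 and 2 only. At these shares a list with 0 calls does not stand out. The 25 lists were written with earlier results of these data known, so a list that follows a pattern already seen is not independent evidence of it. Of 46 large and 32 small ribosomal subunit proteins, 0 passed the test in either direction, and 34 and 28 were higher in replicates 1 and 2 only. Their median distances in replicates 1 to 3 were 1.88, 1.20 and 0.16 for the large and 1.96, 1.24 and 0.15 for the small subunit. Complex I subunits had 1.37, 1.001 and 0.040 over 38 genes and subunits of complexes III, IV and V 1.67, 1.01 and 0.0041 over 34, with 18 and 17 higher in replicates 1 and 2 only and 0 calls. Sm and LSm proteins, which form the core of spliceosomal RNPs, had 1.52, 0.96 and 0.092 over 21 genes. These 5 lists had in common a replicate 3 much closer to the blank mean than replicates 1 and 2. The summed FPKM of replicate 3 was still above every blank library for both ribosomal lists. It was 14651.8 for the large subunit, against 12942.9 to 13196.3 in the blank, and 11913 for the small subunit, against 10391.9 to 10485.6. The 13 mitochondrially encoded proteins, also part of the respiratory chain, had 0.51, -0.30 and -0.28, and the median over 34 translation factors was -0.028.

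Lists of chromatin and cell cycle genes had medians below 0 in replicates 1 and 2. Median distances were -0.60, -0.64 and 0.087 over 36 chromatin modifiers, -0.92, -0.81 and -0.40 over 27 mitotic genes and -0.72, -0.52 and -0.42 over 30 replication genes, and none of these genes passed the test. The 23 cyclins, CDKs and CDK inhibitors had -0.42, -0.37 and -0.23, and 2 of them fell, CCND1 and the CDK4 and CDK6 inhibitor CDKN2B (-1.88 ± 0.28, adjusted p = 0.0453). For CDKN2B the FPKM was 2.04, 3.27 and 2.97 in the blank and 0.603, 0.572 and 0.846 in the siSRSF1-3 libraries. CDKN1A, the p53-induced CDK inhibitor p21, had 90.6, 178 and 172 (blank) and 292, 247 and 199 (siSRSF1-3) FPKM (0.79 ± 0.34, adjusted p = 0.177).

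Collagens and integrins were low in all 3 libraries at the median. The 19 collagens had median distances of -0.89, -0.73 and -0.54, and 2 fell, COL6A1 (-1.23 ± 0.18, adjusted p = 0.0453) and COL11A1 (-2.19 ± 0.32, adjusted p = 0.0453). Among 11 integrins the medians were -1.09, -1.04 and -0.48, and ITGA2, the collagen-binding alpha chain, fell (-2.97 ± 0.34, adjusted p = 0.0356). In the Notch pathway, 4 of 25 genes fell and 1 rose, with median distances of -0.58, -0.42 and -0.34. The receptor NOTCH3 had FPKM of 5.002, 6.20 and 6.06 in the blank and 0.950, 1.03 and 2.01 in the siSRSF1-3 libraries (-2.10 ± 0.30, adjusted p = 0.0453), and the ligand JAG1 had 5.55, 5.89 and 5.92 (blank) and 0.691, 0.990 and 2.004 (siSRSF1-3; -2.27 ± 0.36, adjusted p = 0.0453). The gene that rose was the E3 ligase DTX3 (1.36 ± 0.21, adjusted p = 0.0453), and its relative DTX4 fell (-1.43 ± 0.22, adjusted p = 0.0453). The other gene that fell was the coactivator MAML2 (-2.04 ± 0.34, adjusted p = 0.0483), named here after its values were seen. The 34 Wnt pathway genes had medians of -0.34, -0.48 and -0.18, and 2 fell, the secreted antagonist SFRP1 (-1.74 ± 0.22, adjusted p = 0.0426) and the Dishevelled partner DIXDC1 (-2.14 ± 0.33, adjusted p = 0.0453). Of 9 genes of plasminogen activation, PLAU and the tissue activator PLAT (-2.94 ± 0.25, adjusted p = 0.0184) fell, and the medians were -0.50, -0.045 and -0.54.

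Of 27 growth factor ligands and receptors, 3 rose and 1 fell, and their median distances were -0.53, -0.28 and 0.038. FGF21, a metabolic hormone, had FPKM of 6.10, 7.57 and 6.07 in the blank and 29.2, 25.2 and 17.4 in the siSRSF1-3 libraries (1.82 ± 0.24, adjusted p = 0.0426). FGF2 had 3.66, 4.35 and 4.21 (blank) and 9.82, 8.40 and 7.85 (siSRSF1-3; 1.07 ± 0.18, adjusted p = 0.0462), and ANGPT2 is given above. PDGFB, a ligand of platelet-derived growth factor receptors, fell (-3.07 ± 0.52, adjusted p = 0.0499). The 24 genes of the ATF4 and unfolded protein response list had median distances of 0.64, 0.62 and 0.37, and 1 of them, FGF21, rose. Within that list ATF4 itself had FPKM of 311, 298 and 296 (blank) and 816, 579 and 381 (siSRSF1-3; 0.90 ± 0.35, adjusted p = 0.150), and SLC3A2, a subunit of amino acid transporters, had 124, 141 and 139 (blank) and 379, 355 and 244 (siSRSF1-3; 1.25 ± 0.26, adjusted p = 0.0621). The median log2 fold change over 24 p53 targets was -0.017, with 0 calls.

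Metabolic lists held 0 or 1 call in each direction, to be set beside 0.331% of all genes tested that rose and 0.929% that fell. At an unadjusted p under 0.05 by limma, 6 of 25 glycolysis and 7 of 22 cholesterol biosynthesis genes were lower and 0 of either list higher. Of all genes tested, 7.24% were lower and 7.57% higher at that p. Median distances were -0.46, -0.25 and -0.49 over glycolysis and 0.27, 0.35 and 0.21 over lysosome and autophagy genes. LDHA, lactate dehydrogenase A, was the 1 gene of 25 in glycolysis that fell, from 216, 157 and 167 to 65.9, 69.9 and 57.3 FPKM (-1.47 ± 0.22, adjusted p = 0.0453). Of 31 lysosome and autophagy genes, FLCN rose (1.11 ± 0.16, adjusted p = 0.0453) and LIPA, lysosomal acid lipase, fell (-1.76 ± 0.20, adjusted p = 0.0356). The 22 cholesterol biosynthesis genes had median distances of -0.66, -0.48 and -0.65 with 0 calls, and the 19 interferon-stimulated genes -0.58, -0.44 and -0.65 with 1, IFIT3, which fell (-1.65 ± 0.22, adjusted p = 0.0430). Proteasome subunits had 0.54, 0.28 and -0.26 over 31 genes. Among 13 SR splicing factors the median log2 fold change was -0.16, and SRSF1 was the 1 member lower in all 3 libraries. With FPKM brought to an equal sum or to each library's own read total, the median of all genes moved to -0.43 and -0.26, and the medians of the proteasome and lysosome lists changed sign. The medians of translation factors, mitochondrially encoded proteins and p53 targets, all close to 0, changed sign without blank replicate 1 and without siSRSF1-3 replicate 3. That of translation factors also did without siSRSF1-3 replicate 1, that of the mitochondrially encoded proteins without siSRSF1-3 replicate 2, and that of p53 targets without any one library but siSRSF1-3 replicate 2.

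**Figure D4:**
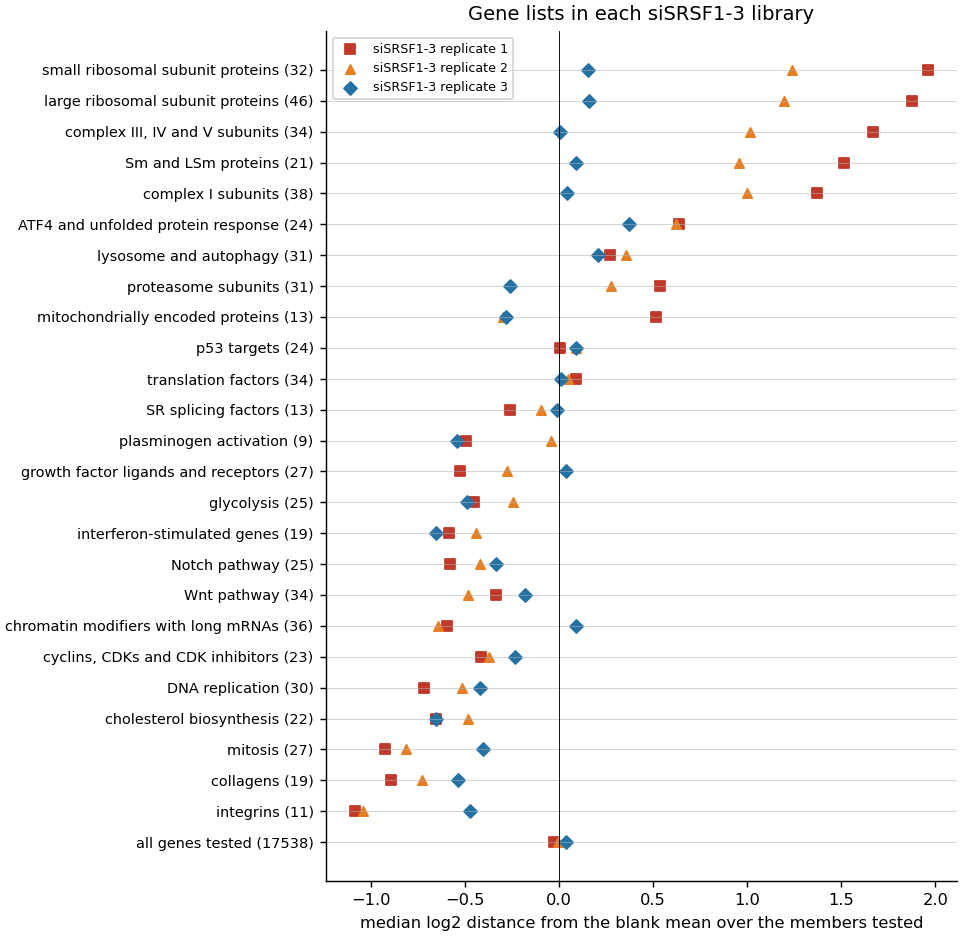
Median distance from the blank mean (log2 units, horizontal axis) of 25 gene lists, with a point per siSRSF1-3 library. Ribosomal, respiratory chain and Sm lists spread from above 1 in replicate 1 to near 0 in replicate 3, while the points of collagens, cholesterol biosynthesis and interferon-stimulated genes lie below 0 in all 3 libraries.

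Of the splicing genes that the study followed, SRRM2 and DMKN were matched to the table. SRRM2, a spliceosome scaffold protein, had FPKM of 54.2, 43.05 and 40.5 in the blank and 35.2, 38.004 and 62.9 in the siSRSF1-3 libraries, with replicate 3 above every blank library and replicates 1 and 2 below (-0.055 ± 0.27, adjusted p = 0.903). DMKN, the secreted epidermal protein dermokine, had 4.41, 6.76 and 7.19 (blank) and 26.7, 15.3 and 8.41 (siSRSF1-3) FPKM and was sorted as higher in replicates 1 and 2 only (1.32 ± 0.42, adjusted p = 0.116). FPKM per gene do not resolve isoforms, so splicing itself was not measured.

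The sorted classes were then read in 6 libraries that the sorting did not use, siSRSF1-2 against OE-LINC01134, where 760 genes were higher (4.33%) and 413 lower (2.35%). The filter of 0.5 FPKM did count these 6 libraries, so genes high in them entered the classes more readily. They are therefore not wholly outside the selection, and the part of the filter in the shares below was not tested. Of the 367 genes higher in all 3 siSRSF1-3 libraries, 84 were higher with siSRSF1-2 (22.9%) and 14 lower (3.81%). Those 84 were 11.1% of the genes called higher in that comparison. Of the 517 genes lower in all 3, 35 were lower (6.77%, and 8.47% of those called lower) and 20 higher (3.87%). Among the 954 genes higher in replicates 1 and 2 only, 25 were higher (2.62%) and 19 lower (1.99%), which is below the share over all genes tested in both directions, and 669 (70.1%) had a difference below 0. Of the 724 genes lower in replicates 1 and 2 only, 24 were higher (3.31%) and 8 lower (1.1%). The median differences of the 4 classes were 0.33, -0.13, -0.18 and 0.075, in the order given, and -0.028 over all genes. Since OE-LINC01134 is itself a treatment, a difference here may come from either group.

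One of these libraries stood apart. OE-LINC01134 replicate 2 differed from replicates 1 and 3 of its group with a chi-square per degree of freedom of 66.5 and 68.6, against 2.135 between those replicates. Blank replicate 1, which entered the sorting, correlated across genes with it at r = 0.952 and with its own group at 0.935 and 0.937. Without OE-LINC01134 replicate 2, 1111 of all genes were higher (6.33%) and 599 lower (3.42%). Of the genes higher in all 3, 86 were then higher (23.4%) and 37 lower (10.1%), with a median of 0.23. Of the genes lower in all 3, 37 were lower (7.16%) and 78 higher (15.1%), and their median turned from -0.13 to 0.13. The median of the genes lower in replicates 1 and 2 only turned to -0.025, with 32 higher (4.42%) and 20 lower (2.76%), and that of the genes higher in replicates 1 and 2 only was -0.16. The direction of the genes lower in all 3 in this comparison thus rested on 1 library. Leaving out each of the other 5 libraries gave 60 to 82 higher genes among those higher in all 3 (16.3% to 22.3%, beside 2.76% to 3.62% of all genes). The part of these 2 libraries in the classes was not tested.

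**Figure D5:**
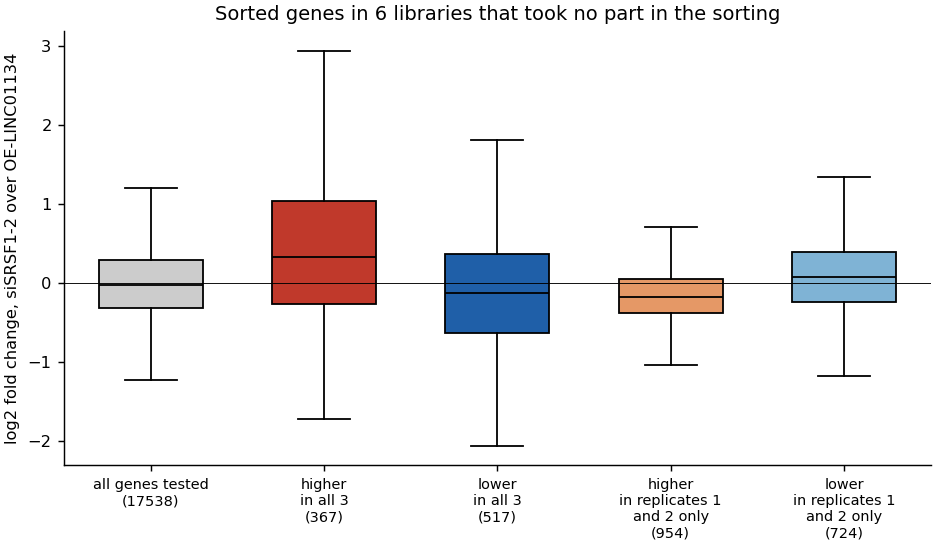
Log2 fold change of siSRSF1-2 against OE-LINC01134 (vertical axis) for the genes of each sorted class and for all genes tested; boxes show the median and quartiles, whiskers the range without outlying points. The box of the genes higher in all 3 siSRSF1-3 libraries lies highest, with a median of 0.33, and that of the genes higher in replicates 1 and 2 only is centred at -0.18. Without OE-LINC01134 replicate 2 the median of the genes lower in all 3 changes sign.

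Against the blank libraries, which both comparisons share, siSRSF1-2 gave 389 genes higher (2.22%) and 479 lower (2.73%), so the values of single genes are only set side by side. SNAPC1 had FPKM of 36.1, 35.6 and 36.1 in the siSRSF1-2 libraries, CCND1 10.99, 10.8 and 11.8 and PLAU 4.82, 4.68 and 5.23. For SNAPC1 these values are to be read against 21.2, 19.9 and 20.9 in the blank libraries, and for PLAU against 30.01, 33.3 and 34.1. AHNAK had 23.6, 25.04 and 27.1 and EMP1 17.7, 18.4 and 18.4 FPKM with siSRSF1-2, and the direct test of siSRSF1-3 against siSRSF1-2 gave an adjusted p of 0.0517 for both. RPS12 had 1255, 1244 and 1242, NDUFB7 84.4, 81.8 and 77.4 and ARHGAP5 5.42, 5.74 and 6.19 FPKM with siSRSF1-2. In the direct test of siSRSF1-3 against siSRSF1-2, 6 genes were higher (0.0342%) and 9 lower (0.0513%), at adjusted p under 0.05, and the counts at an unadjusted p were 1581 and 1302.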

How the data were processed

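RNA of U2OS cells was sequenced in 12 libraries, of which 3 siSRSF1-3 and 3 blank libraries were compared, grouped by their sample labels. According to the methods of the study, poly-T selected mRNA was read as 150 bp pairs with 2 biological replicates per condition, whereas 3 libraries per group were analysed here. The labels name another library kit than the methods. The aligner, the counting program, its use of strand and the genome build are not given in the sources used here, since the labels list mouse builds for human identifiers.

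The authors deposited FPKM per gene, which already carry a scaling between libraries, and a gene length and coordinates. Multiplied by gene length, 100% of values were whole multiples of a library's smallest step, within 0.01 of a read, and this gave reads per gene. Depth was 26237763 to 32954539 reads on genes per library. Antisense and overlapping genes, pseudogenes and their parents may share reads, and counts cover counting error only.

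The R package limma (version 3.58.1, under R 4.3.3) was run on log2(FPKM + 0.1), using eBayes and its trend option, for 17538 genes averaging 0.5 FPKM or more in the 12 libraries. Fold changes are on this scale and understate the change of low genes. A gene passed at a p-value, adjusted after Benjamini and Hochberg, under 0.05 and a log2 fold change over 1 in either direction. For SRSF1 an exact permutation test was added. The script was tested on simulated data. Symbols were assigned from the full gene names in the table, and 763 of 763 list and marker symbols were matched. SCAT1 could not be matched.

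The members, the 25 gene lists and the 5 marker lists were chosen with earlier results of these data known. Named genes were SRSF1, SRRM2 and DMKN, the 8 most separated named genes of each sorted class with a mean FPKM of at least 2 over the 6 libraries, the 6 genes with the smallest adjusted p per direction, and up to 4 members per list, called ones first and then the most abundant. Up to 12 abundant protein-coding genes per class (mean FPKM of at least 10), MT-ND4, MAML2 and the genes on either side of a threshold were added after their values were seen, and not every gene of the rule is reported here. The alternatives were other pseudocounts, filters, scalings, distances and models, and leaving out each library. Averaging blank replicates 2 and 3, leaving out blank replicate 1 with siSRSF1-3 replicate 3, and leaving single libraries out of the direct test and of siSRSF1-2 against OE-LINC01134 were added after the data were seen.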

Additional observations from a re-analysis of the deposited data

Results flagged for a closer look

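With 3 libraries per group, a single library was not tested for being far from its group. The results listed here are the 15 genes that differed between siSRSF1-3 and siSRSF1-2 in the direct test (limma, Benjamini-Hochberg adjusted p under 0.05). The differences are on the log2 scale, siSRSF1-3 minus siSRSF1-2, and no call was left without siSRSF1-3 replicate 2 or without any one siSRSF1-2 library.

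Of these genes 6 were higher and 9 lower with siSRSF1-3, and 8 were protein coding. ARL6IP1, a protein that shapes the endoplasmic reticulum, had FPKM of 27.01, 29.6 and 24.5 with siSRSF1-3 and 6.80, 6.80 and 6.41 with siSRSF1-2 (difference 2.00). CMTM8, a membrane protein of the chemokine-like factor family, had 20.6, 24.4 and 18.1 FPKM with siSRSF1-3 and 5.66, 4.90 and 3.94 with siSRSF1-2 (difference 2.10). NR1D1, the circadian repressor REV-ERB alpha, was higher in all 3 siSRSF1-3 libraries, with FPKM of 50.05, 45.6 and 43.4 against 19.6, 18.8 and 18.2 with siSRSF1-2 (difference 1.29). The other higher genes were ARL14, a small GTPase (1.41), ZNF395, a zinc finger protein (1.20), and STT3A, a catalytic subunit of oligosaccharyltransferase (1.01). Among the lower genes, FGFRL1, a fibroblast growth factor receptor without a kinase domain, had FPKM of 3.33, 3.67 and 4.02 with siSRSF1-3 and 9.87, 10.3 and 10.5 with siSRSF1-2 (difference -1.45), and ELL2, a transcription elongation factor, differed by -1.10.

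Set beside the blank libraries, which both comparisons share, the larger distance belonged to siSRSF1-2 in some genes. ARL6IP1 was at 0.26 with siSRSF1-3 and -1.74 with siSRSF1-2, CMTM8 at 0.86 and -1.24, STT3A at -0.32 and -1.32, and ELL2 at -0.38 and 0.72. NR1D1 was at 1.54 and 0.25, ARL14 at 1.59 and 0.18, FGFRL1 at -1.36 and 0.094, and ZNF395 at 0.66 and -0.54.

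The remaining 7 were short RNAs with 0 reads in every siSRSF1-3 library: MIR553 (-4.80), ENSG00000201217 (-4.51), MIR6769A (-4.51), ENSG00000251603 (-4.19), SNORD116-24 (-4.01), RN7SL184P (-3.83) and MIR4701 (-3.67). Blank libraries also lacked reads of some of them, MIR6769A in blank replicates 1 and 2 and MIR4701 and RN7SL184P in blank replicate 3. Against the blank libraries MIR6769A was at -0.79 with siSRSF1-3 and 3.72 with siSRSF1-2, RN7SL184P at -1.32 and 2.51, MIR4701 at -2.30 and 1.37, and MIR553 at -3.34 and 1.46. ENSG00000201217 was at -3.77 and 0.74, ENSG00000251603 at -3.43 and 0.77, and SNORD116-24 at -3.54 and 0.46. A count of 0 allows up to 3 reads per library, so these fitted differences depend on the pseudocount and are not bounds on a fold.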

How the results depend on the processing

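The counts of genes that passed the test depended on the setting, and most causes were not tested. For higher and lower genes, against 58 and 163, they were 107 and 206 with a pseudocount of 1, 16 and 47 with 0.01, 1 and 8 with no filter, 83 and 188 at a mean FPKM of at least 1, 1 and 0 with an equal FPKM sum per library (507 and 2553 at an unadjusted p), 11 and 58 with own read totals, 32 and 121 without a trend, 1245 and 1177 with 1 fit over the 4 groups, 70 and 408 with voom on the recovered reads, 1979 and 1718 without blank replicate 1 and siSRSF1-3 replicate 3, 0 and 0 with blank replicates 2 and 3 averaged (1108 and 1033 at an unadjusted p), and 1327 and 1269 at an unadjusted p. Array quality weights gave 2008 and 2299, but siSRSF1-3 replicate 2 then had a weight of 46.69 and the other libraries 0.11 to 2.39. Leaving out single libraries gave 0 to 2192 higher and 0 to 1992 lower genes, and in the direct test 0 to 2807 and 0 to 2551.

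In the paired fit, with the replicate number as a block, 0 and 0 genes passed by limma (1358 and 1272 at an unadjusted p), and SRSF1 had an adjusted p of 0.146. Same-numbered libraries had correlations of deviations of -0.055, 0.0033 and -0.058, and not every library correlated best with its own number. Values this close to 0, from 3 libraries per group, cannot decide whether same-numbered libraries were made together. Whether the numbers pair the samples is therefore unknown.

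The sorted counts, in the order higher in all 3, lower in all 3, higher and lower in replicates 1 and 2 only, were 126, 193, 737 and 297 with a pseudocount of 1, 539, 971, 1167 and 1117 with no filter, 209, 667, 181 and 1927 with an equal sum, 286, 613, 396 and 1330 with own read totals, 1034, 1251, 2266 and 1752 at a distance of 0.58, and 109, 172, 147 and 332 at 1.5. With replicate 3 inside the range of the blank libraries the last 2 were 479 and 460. SRSF1 was lower in every fit. It passed with a pseudocount of 1 (-1.92), 1 fit over the 4 groups (-2.09), array weights (-1.59) and voom (-2.37). It also passed with blank replicate 1 and siSRSF1-3 replicate 3 both left out (-2.05). When single libraries were left out it was at -1.72 to -2.33, and it passed only without siSRSF1-3 replicate 3. SRRM2, at -0.055, changed sign to 0.070 without blank replicate 1, 0.10 without siSRSF1-3 replicate 1 and 0.047 without siSRSF1-3 replicate 2, within a range of -0.32 to 0.10 over single libraries left out. Of the genes named by the rule, 36 passed, and all 36 missed the threshold under the block and without siSRSF1-3 replicate 2.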

Other observations

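Of 194 tested genes named as microRNAs, 20 (10.3%) were lower in all 3 siSRSF1-3 libraries and 20 (10.3%) lower in replicates 1 and 2 only, on few reads each, beside 2.95% and 4.13% of all genes tested. Of these genes 2 (1.03%) were higher in all 3 and 4 (2.06%) higher in replicates 1 and 2 only, beside 2.09% and 5.44%. Of 422 genes named as zinc finger proteins, 2 (0.474%) were higher and 4 (0.948%) lower in all 3, and 8 (1.90%) were higher in replicates 1 and 2 only. The 17 zinc finger genes lower in replicates 1 and 2 only (4.03%) were close to the share of all genes. These counts are descriptions without a test.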
